A study of Mus musculus with 8 samples.

Results

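Blood and lymphatic endothelial cells line the vessels beneath an epithelium, and 10 of their characteristic transcripts were followed through libraries made from mouse cheek epithelium: Tie1, Emcn, Mmrn1, Jam2, Vwf, Pecam1, Cdh5, Kdr, Slc43a3 and Prex2. All 10 were found by symbol among the 22911 genes of the deposited table. They were chosen because they had been seen to differ between the groups in these same libraries. Their difference between the groups is therefore given as a description, and the calls of the fit across all genes are counted once without being read as a result.

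The animals were adult C57BL/6 mice, an inbred strain, and the series describes both groups as wild type. One group was germ-free, raised without microorganisms, and the other was specific pathogen-free (SPF), with a resident microbiota but without listed pathogens. Each group held 4 animals with 1 library each, numbered 1, 3, 4 and 5 in SPF and 1 to 4 in germ-free mice, and neither group was treated before the tissue was taken. The p-values below measure the spread between these animals. Buccal epithelium was lifted from the mucosa with dispase II, and sorted epithelial cells gave the RNA. The sources used here do not name the sorting markers.

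Endothelial cells hold together through VE-cadherin and PECAM-1, and they depend on vascular endothelial growth factor (VEGF) and angiopoietin signals for their growth and stability. Lymphatic vessels share much of this program and add proteins of their own, such as MMRN1. An epithelium has no vessels of its own, so in the oral mucosa these cells belong to the connective tissue underneath. The libraries held 10260264 to 15524731 gene counts, and the basal keratin gene Krt5 lay between 10360 and 13350 CPM, counts scaled to a common library size by the trimmed mean of M values (TMM). The 10 endothelial transcripts together made up 0.000472% to 0.00115% of the counts of an SPF library and 0.00175% to 0.0160% of those of a germ-free library. In bulk RNA, fewer cells of a type and less RNA per cell cannot be told apart.

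Promoter windows of RefSeq (GRCm38.p6, 250 bases before to 50 bases after a start site) were matched for 4 of the 10 genes, Emcn, Tie1, Kdr and Mmrn1. ETS factors such as ERG and FLI1, which many endothelial genes depend on, bind a GGAA core, and 2 common forms of that site, AGGAAG and CGGAAG, were searched on both strands. The windows of Emcn and Tie1, a pair with matches, and of the receptor gene Kdr, which has none, are shown 5′ to 3′ along the gene, with matches in capitals.
Emcn, chr3:137340828-137341127, plus strand: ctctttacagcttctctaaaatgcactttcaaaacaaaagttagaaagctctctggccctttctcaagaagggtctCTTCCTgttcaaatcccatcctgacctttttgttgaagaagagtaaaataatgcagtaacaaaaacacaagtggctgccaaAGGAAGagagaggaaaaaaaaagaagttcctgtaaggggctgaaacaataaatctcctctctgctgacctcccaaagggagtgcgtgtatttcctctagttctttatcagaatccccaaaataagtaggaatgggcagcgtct
Tie1, chr4:118489800-118490099, minus strand: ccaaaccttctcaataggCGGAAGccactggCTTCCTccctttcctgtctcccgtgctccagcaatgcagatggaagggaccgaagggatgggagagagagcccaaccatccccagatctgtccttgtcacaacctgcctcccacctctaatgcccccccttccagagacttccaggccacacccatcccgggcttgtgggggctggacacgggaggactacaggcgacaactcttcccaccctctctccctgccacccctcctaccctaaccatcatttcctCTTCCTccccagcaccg
Kdr, chr5:75978406-75978705, minus strand: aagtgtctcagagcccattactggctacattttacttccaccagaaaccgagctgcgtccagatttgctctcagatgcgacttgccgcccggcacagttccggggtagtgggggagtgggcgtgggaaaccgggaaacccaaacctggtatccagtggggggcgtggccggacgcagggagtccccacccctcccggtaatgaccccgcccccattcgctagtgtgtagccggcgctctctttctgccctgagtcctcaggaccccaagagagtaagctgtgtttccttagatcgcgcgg
The Emcn window held 2 matches, which began 174 and 93 bases before the start site. The Tie1 window held 3, which began 232 and 219 bases before and 34 bases after the start site, and no matches overlapped. The Kdr and Mmrn1 windows held 0. At least 1 match to either form was present in 46.5% of the 32851 promoter windows of this length, so 2 of 4 is near the background. The RefSeq start site used for Tie1 lies 212 bases inside the annotated gene, so its match positions are not distances from the gene's annotated start. The start site used for Mmrn1 lies 19341 bases inside the annotated gene, and that window is not shown.

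The receptor genes were low in every SPF library and higher in every germ-free library. Tie1 encodes an orphan receptor tyrosine kinase that modulates the angiopoietin receptor TEK (ENSMUSG00000033191, GRCm38 chromosome 4, 118471191 to 118490061, minus strand). Tie1 had 4, 1, 6 and 2 counts in SPF 1, 3, 4 and 5, and 20, 83, 156 and 15 counts in germ-free 1 to 4. The groups did not overlap, and germ-free 2 and 3 stood above germ-free 1 and 4. Tie1 averaged 0.270 ± 0.192 CPM (mean ± SD, n = 4) in the SPF group and 4.58 ± 4.07 CPM in the germ-free group. Kdr encodes VEGF receptor 2, the main signalling receptor for VEGF-A (ENSMUSG00000062960, chromosome 5, 75932827 to 75978458, minus strand). Kdr had 2, 5, 18 and 1 counts in the SPF libraries and 30, 85, 198 and 21 in the germ-free libraries. SPF 4 held most of the SPF counts of Kdr, yet its 1.38 CPM stayed below the lowest germ-free value of 1.95 CPM. The ratio of the summed counts, germ-free over SPF and scaled for library size, was 19.6 for Tie1 (exact 95% interval 11.3 to 37.3) and 11.9 for Kdr (8.01 to 18.6). These intervals cover counting error only, and spread between animals comes on top.

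The junction genes differed among themselves in how far the groups were apart. Cdh5 encodes VE-cadherin, the adherens junction protein of endothelium (ENSMUSG00000031871, chromosome 8, 104101625 to 104144511, plus strand). Cdh5 had 20, 9, 13 and 0 counts in the SPF libraries and 12, 74, 458 and 20 in the germ-free libraries. Here the groups overlapped: germ-free 1, at 0.883 CPM, lay below SPF 1 and SPF 4, and germ-free 3, at 29.3 CPM, stood far above the rest. Pecam1 encodes an adhesion molecule of endothelial cell borders that platelets and leukocytes carry as well (ENSMUSG00000020717, chromosome 11, 106654217 to 106750628, minus strand). Pecam1 had 36, 55, 56 and 33 counts in the SPF libraries and 58, 95, 466 and 41 in the germ-free libraries, the highest summed SPF count of the 10 genes. Its groups overlapped too, since germ-free 4 lay at 3.81 CPM and SPF 4 at 4.28 CPM. The ratio of germ-free to SPF mean CPM was 3.13 for Pecam1 and 10.1 for Cdh5 with all libraries, and 1.36 and 2.79 without germ-free 3. Jam2 encodes a junctional adhesion molecule of endothelial tight junctions (ENSMUSG00000053062, chromosome 16, 84774123 to 84825928, plus strand). Jam2 had 7, 3, 6 and 2 counts in the SPF libraries and 20, 56, 215 and 15 in the germ-free libraries, without overlap.

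**Figure D1:**
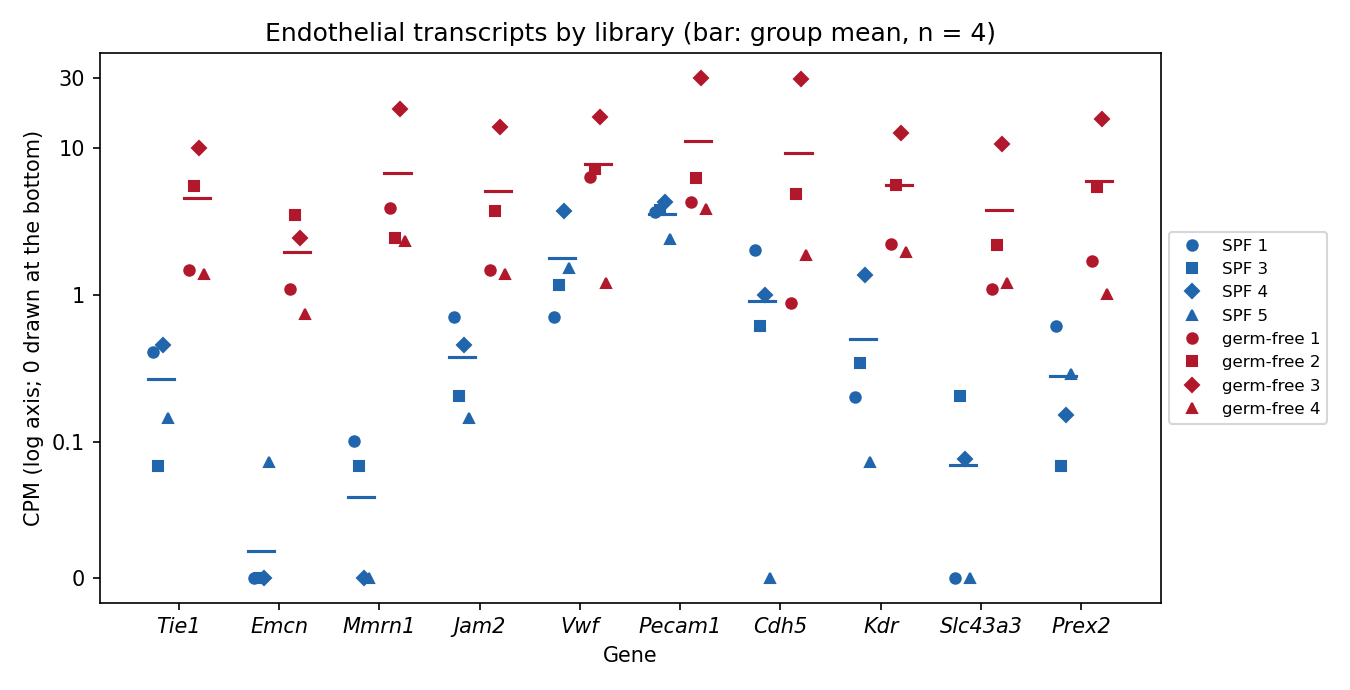
CPM (log axis) of the 10 endothelial transcripts in each SPF (blue) and germ-free (red) library, with a bar at each group mean (n = 4). Germ-free 3 was the highest library for 9 of the 10 genes, and the groups overlapped for Vwf, Pecam1 and Cdh5.

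Emcn, Mmrn1 and Slc43a3 were close to absent from the SPF libraries. Emcn encodes endomucin, a mucin-like surface glycoprotein of capillaries and veins (ENSMUSG00000054690, chromosome 3, 137341067 to 137432185, plus strand). Emcn had 0, 0, 0 and 1 counts in the SPF libraries and 15, 53, 38 and 8 in the germ-free libraries. It was the single gene of the 10 with its highest value in germ-free 2 rather than germ-free 3. Mmrn1 encodes multimerin 1, a large secreted protein stored in platelets and endothelium and a common marker of lymphatic vessels (ENSMUSG00000054641, chromosome 6, 60924976 to 60989378, plus strand). Mmrn1 had 1, 1, 0 and 0 counts in the SPF libraries and 53, 37, 285 and 25 in the germ-free libraries. Slc43a3 encodes a membrane transporter of purine nucleobases (ENSMUSG00000027074, chromosome 2, 84936579 to 84958509, plus strand). Slc43a3 had 0, 3, 1 and 0 counts in the SPF libraries and 15, 33, 165 and 13 in the germ-free libraries. With so few SPF counts the sizes are loosely bounded. The ratio of summed counts was 106 for Emcn (exact 95% interval 18.6 to 4220), 186 for Mmrn1 (51.1 to 1540) and 52.5 for Slc43a3 (20.2 to 194). A floor of 3 counts corresponds to 0.205 to 0.305 CPM per SPF library, and none of these 3 genes exceeded it in any SPF library.

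The last pair differed in how much SPF libraries contributed. Vwf encodes von Willebrand factor, the clotting protein that endothelial cells store and that tethers platelets (ENSMUSG00000001930, chromosome 6, 125546774 to 125686679, plus strand). Vwf had 7, 17, 49 and 21 counts in the SPF libraries and 86, 109, 253 and 13 in the germ-free libraries. Germ-free 4, at 1.21 CPM, lay below SPF 4 and SPF 5, so the groups overlapped. Prex2 encodes an exchange factor that activates the GTPase RAC (ENSMUSG00000048960, chromosome 1, 10993465 to 11303681, plus strand). Prex2 had 6, 1, 2 and 4 counts in the SPF libraries and 23, 82, 247 and 11 in the germ-free libraries, without overlap. In the GENCODE M21 annotation Jam2 overlaps Gm25908 on its own strand, and Cdh5 (Gm29682) and Prex2 (Gm24173 and Gm28686) overlap genes on the other strand. None of these partners is in the deposited table. The library kit marks strand, but whether the counting used it is unknown here.

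For 7 of the 10 genes every germ-free library lay above every SPF library, against 6.24% of the 15098 genes tested. By edgeR's quasi-likelihood test over those 15098 genes, 6 of the 10 had an adjusted p under 0.05 (Tie1, Emcn, Mmrn1, Jam2, Slc43a3 and Prex2), against 1.85% of genes called higher, 2.33% called lower and 4.18% called in either direction. DESeq2 called 8 of the 10 and gave 1 of them no adjusted p, against 4.06% called higher among the genes it tested. Nothing is read from these counts, because the genes were chosen on this contrast. All 10 also passed the count filter through their germ-free libraries: each reached its minimum of 0.732 CPM in all 4 germ-free libraries, 1 did so in all 4 SPF libraries, and 6 reached it in 0 SPF libraries. The fitted log2 fold changes ran from 1.65 for Pecam1 to 7.12 for Mmrn1, with a median of 3.94, where the median of all tested genes was 0.0209. In the authors' deposited table the log2 fold changes of SPF over germ-free ran from −7.41 for Mmrn1 to −1.64 for Pecam1. Without SPF 5 the number called was 2, against 0.891% of genes called higher there, and without germ-free 3 it was 5, against 1.14% of genes called higher there.

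The germ-free libraries were far from alike. Summed over the 10 genes, the level was 24.4, 46.7, 158.7 and 16.9 CPM in germ-free 1 to 4, and 8.45, 6.501, 11.5 and 4.66 CPM in SPF 1, 3, 4 and 5. The sum thus averaged 61.7 ± 65.9 CPM in germ-free and 7.78 ± 2.94 CPM in SPF libraries, and the germ-free SD exceeded the germ-free mean. The sums did not overlap between the groups. The ratio of the means was 7.92 with all libraries and 3.77 without germ-free 3. Germ-free 3 was the highest of the 4 germ-free libraries for 9 of the 10 genes, whereas it was the highest for 20.5% of all tested genes. It held 31.3% of the germ-free CPM of Emcn and 79.4% of those of Cdh5. Germ-free 4 was the lowest germ-free library for 8 genes and germ-free 1 for the other 2, Cdh5 and Slc43a3.

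Within the groups the 10 genes varied together for the most part, with Emcn and Mmrn1 least alike. Over the 8 libraries, Pearson's r between the genes' deviations from their group means, on the log2(CPM + 1) scale, had a median of 0.858 over the 45 pairs. It was highest for Pecam1 with Slc43a3 (0.980) and lowest for Emcn with Mmrn1 (0.281). The points share their libraries and depths, so these values are descriptions only. In SPF libraries 6 of the 10 genes had at most 7 counts each, so their deviations there were small. Germ-free 3 was the highest germ-free library for 9 genes, so r rests largely on that 1 animal.

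The balance between the lymphatic marker Mmrn1 and the genes Emcn and Kdr, which blood capillaries express strongly, is described for each library. The 3 genes were picked after their values were seen, each library is 1 animal, and the intervals hold counting error only, so no difference between animals was tested. Mmrn1 made up 54.1% of the counts of these 3 genes in germ-free 1 (53 of 98, exact Clopper-Pearson 95% interval 43.7% to 64.2%), 54.7% in germ-free 3 (50.3% to 59.0%) and 46.3% in germ-free 4 (32.6% to 60.4%). In germ-free 2 the share was 21.1% (37 of 175, 15.3% to 27.9%). Other vessel markers did not all follow this order. Of 12 lymphatic markers in the table, 9 had a lower CPM in germ-free 2 than in germ-free 1 and 3 a higher one. Among the 9, Stab2 (4 and 4 counts) and Gja4 (1 and 1) had equal counts and differed by library size only. The hyaluronan receptor gene Lyve1 went from 3.90 CPM in germ-free 1 to 2.11 CPM in germ-free 2, and Pdpn, which encodes podoplanin, from 13.7 to 23.1 CPM. Of 35 blood endothelial markers 21 were higher in germ-free 2 than in germ-free 1, 13 were lower and 1 was equal, and of the 10 further receptor genes described next all 10 were higher. The SPF libraries held 2 to 18 counts of Mmrn1, Emcn and Kdr together, too few to place their balance.

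**Figure D2:**
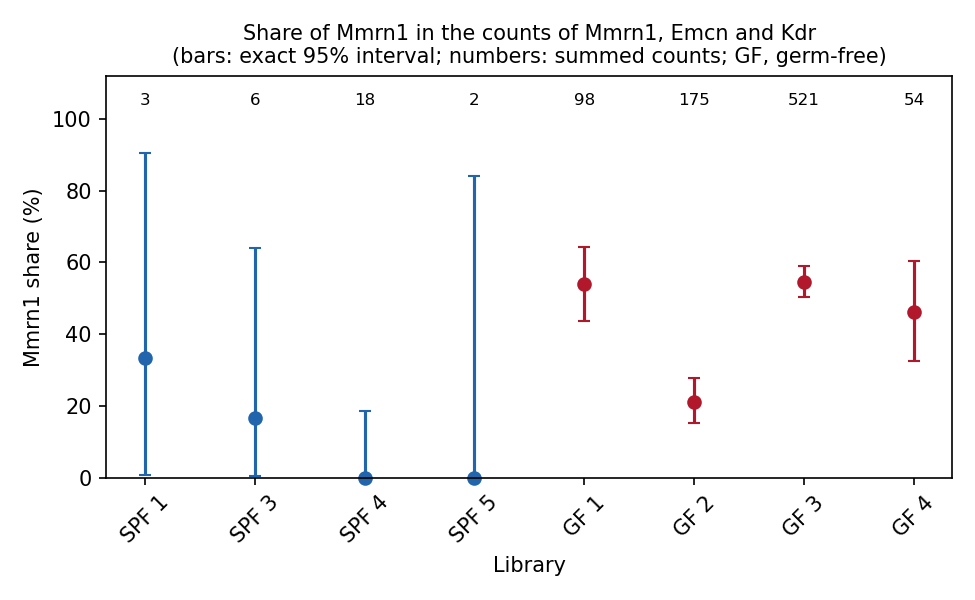
Share of Mmrn1 (%) in the summed counts of Mmrn1, Emcn and Kdr for each library, with exact 95% intervals from counting error and the summed counts above. The share is 21.1% in germ-free 2 and 46.3% to 54.7% in the other 3 germ-free libraries, and the SPF intervals are wide.

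Levels of different genes were compared per kilobase of exon (GENCODE M21). In germ-free libraries the mean level was highest for Cdh5 (2.20 CPM per kb), Pecam1 (1.77) and Mmrn1 (1.15 CPM per kb). Without germ-free 3 the order changed: Pecam1 averaged 0.768, Cdh5 0.605 and Mmrn1 0.492 CPM per kb, with Tie1 at 0.566. With all germ-free libraries Tie1 (0.932), Slc43a3 (0.843), Jam2 (0.840), Kdr (0.621), Vwf (0.481), Prex2 (0.360) and Emcn (0.359 CPM per kb) followed. No gene differed from its neighbour in this order by more than the smaller of their SDs, in 9 of 9 steps. These SDs are between animals, and the genes share the same libraries and vary together. They therefore do not measure the error of a difference between genes, and the order within each library was not tested. In SPF libraries Pecam1 averaged 0.566 CPM per kb, above Cdh5 at 0.217 and Vwf at 0.111 CPM per kb. The deposited gene annotations gave 4 of the 10 genes (Emcn, Jam2, Pecam1 and Cdh5) the term cell-cell adhesion, which 0.676% of the tested genes carried. They gave 3 (Tie1, Emcn and Pecam1) the term angiogenesis, carried by 1.16%. Other shared terms were broader, such as membrane (8 of the 10, and 29.3% of the tested genes). The 10 genes were chosen as endothelial, so nothing is read from these shares.

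Other receptors of the same pathways had higher germ-free values, but none passed the test by edgeR. Of 10 further genes of angiopoietin, VEGF and related signalling, 8 were tested, 7 had a log2 fold change above 0 and 0 were called. By edgeR 5 had an unadjusted p under 0.05, against 19.5% of all tested genes, and DESeq2 called 6 of the 10 higher, against 4.06%. The median log2 fold change was 2.183, beside 0.0209 for all tested genes, and 1.302 without germ-free 3. Ptprb, the vascular phosphatase that dephosphorylates TEK and VE-cadherin, had 2, 4, 16 and 4 counts in the SPF libraries and 21, 188, 538 and 46 in the germ-free libraries. Its groups did not overlap, and its log2 fold change was 4.69 ± 1.176 (standard error, SE; edgeR adjusted p = 0.0818). Ptprb passed edgeR's test without germ-free 1 (adjusted p = 0.0282) and without germ-free 3 (adjusted p = 0.0401). It did not pass without any other single library (edgeR adjusted p from 0.111 to 0.203) or with the replicate number as a block (0.271). Flt4, the VEGF-C receptor of lymphatic vessels, was at 0.856 ± 0.803 CPM (SPF) against 4.00 ± 3.03 CPM (germ-free) (2.27 ± 0.66, edgeR adjusted p = 0.0741, and 0.0207 without SPF 1). Without any other single library the edgeR adjusted p of Flt4 lay between 0.0783 and 0.241, and with the replicate block it was 0.302. Eng, a co-receptor for BMP9, was at 0.766 ± 0.711 and 4.34 ± 4.94 CPM (2.56 ± 0.82, edgeR adjusted p = 0.112).

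A list of ligand genes had fold changes on both sides of 0, 4 above and 3 below. Beside angiopoietin and VEGF genes it held Efna1, Angptl4, Dll4 and Apln, which are neither. Of the 11 ligand genes 7 were tested, Efna1 and Angptl4 among them. EdgeR called 0, with 0 at an unadjusted p under 0.05 and 0 called by DESeq2. Their median log2 fold change was 0.038, and it lay between −0.057 and 0.23 when any 1 library was left out. Vegfd, a lymphangiogenic ligand, was at 4.23 ± 2.19 CPM (SPF) against 7.26 ± 2.60 CPM (germ-free) (edgeR adjusted p = 0.284). Vegfb was at 35.4 ± 5.42 and 28.8 ± 5.68 CPM (edgeR adjusted p = 0.313), and Pgf, the placental growth factor gene, at 3.01 ± 1.47 and 1.85 ± 0.88 CPM (edgeR adjusted p = 0.454). The summed ligand level ranged from 129.5 to 144 CPM (SPF) against from 117.5 to 151.8 CPM (germ-free).

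Further endothelial markers had mostly positive differences with 1 call in each of the blood and lymphatic lists. Of 35 blood endothelial markers 20 passed the count filter, 19 of these had a log2 fold change above 0 and 1 rose by edgeR, with 10 at an unadjusted p under 0.05 and 9 of the 35 called by DESeq2. The median was 1.54, and 0.71 without germ-free 3. The gene that rose was Adgrl4, an adhesion G protein-coupled receptor of endothelium, from 1.68 ± 0.34 to 5.46 ± 3.06 CPM (log2 fold change 1.70 ± 0.43, edgeR adjusted p = 0.0396). The call ended when any library other than germ-free 1 was left out, with an adjusted p of 0.154 without germ-free 3. Of 13 lymphatic markers 12 were in the table and 9 were tested, 8 of them above 0 with a median of 0.96 (0.51 without germ-free 3), and 1 rose by edgeR while DESeq2 called 4. That gene was Sema3d, a secreted guidance protein, with 211, 374, 257 and 240 counts in the SPF libraries and 572, 554, 635 and 508 in the germ-free libraries. Sema3d rose from 21.04 ± 3.44 to 41.6 ± 4.39 CPM (0.98 ± 0.14, edgeR adjusted p = 0.00207), without overlap. It had at least 211 counts in every SPF library, where the highest count of the 10 endothelial genes was 56, and its germ-free libraries lay between 36.6 and 47.2 CPM. Over all genes, 1.85% were called higher by edgeR, 4.06% were called higher by DESeq2 and 19.5% had an unadjusted p under 0.05 by edgeR.

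Among endothelial adhesion molecules for leukocytes, 4 of 9 were tested and edgeR called 0, with 1 at an unadjusted p under 0.05 (19.5% of all tested genes) and 0 called by DESeq2. Cd93, a lectin-like receptor of endothelial and myeloid cells, was at 1.03 ± 0.48 CPM (SPF) against 4.66 ± 5.98 CPM (germ-free) (2.17 ± 0.88, edgeR adjusted p = 0.217). Vcam1 was at 1.21 ± 0.72 and 2.21 ± 1.31 CPM (edgeR adjusted p = 0.452), and F11r, a junctional adhesion molecule that epithelia express, at 105.5 ± 8.89 and 94.6 ± 7.69 CPM (edgeR adjusted p = 0.364). F11r lay between 88.0 and 114.1 CPM in every library, where Jam2 ran from 0.146 to 13.75 CPM.

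**Figure D3:**
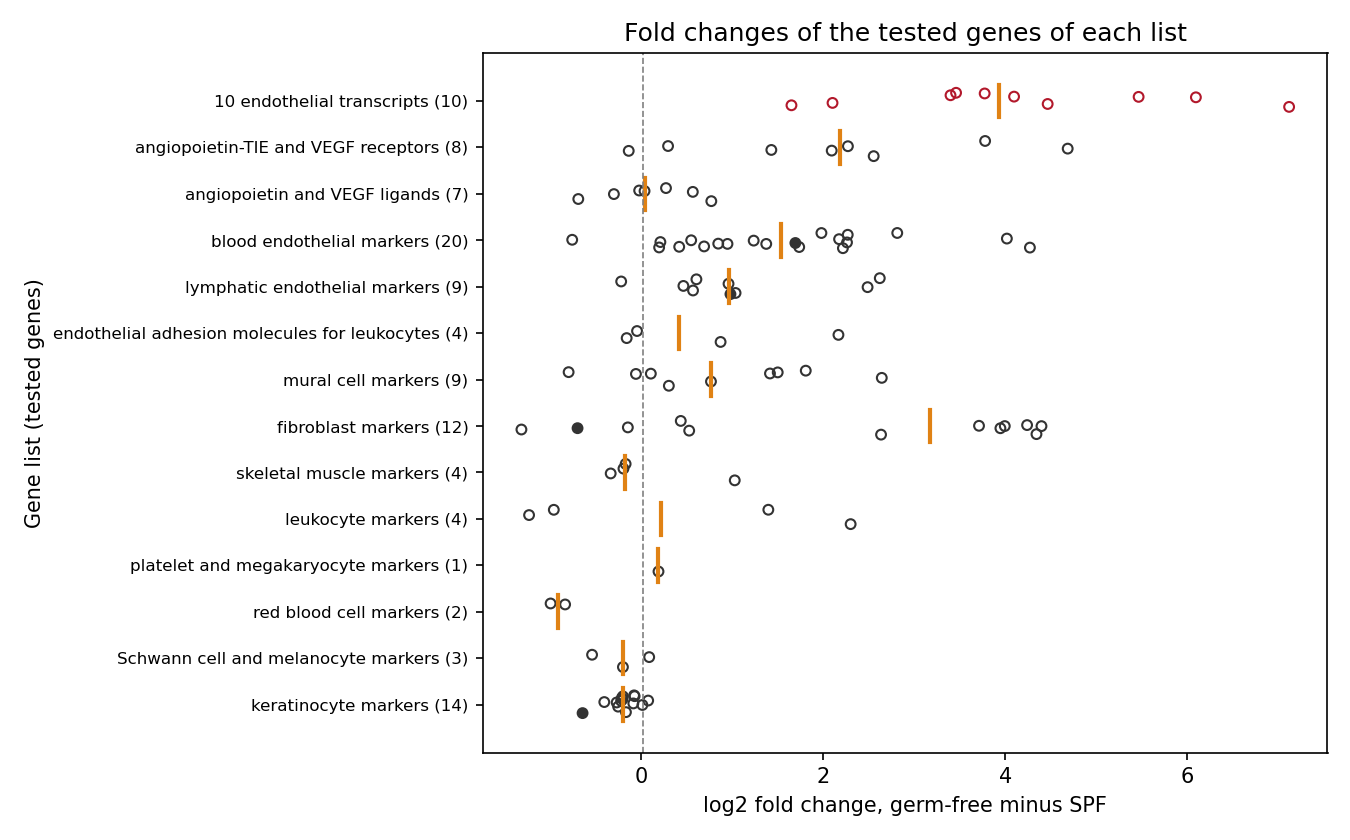
Fitted log2 fold changes (germ-free minus SPF) of the tested genes of each list, with list medians in orange, filled points for called genes outside the first list, and the median of all tested genes dashed. The first row, chosen on this contrast, has a median of 3.94, the receptors 2.183, the ligands 0.038 and the fibroblast markers 3.17.

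Fibroblast markers, also of the connective tissue, were highest in the same germ-free library as the endothelial transcripts. Of 14 fibroblast markers 12 were tested and 9 had a log2 fold change above 0, with a median of 3.17, and of 1.53 without germ-free 3. By edgeR 0 rose and 1, Thy1, fell (24.6 ± 1.09 to 15.1 ± 3.67 CPM, −0.70 ± 0.17, adjusted p = 0.0383), where 2.33% of all tested genes fell. By edgeR 7 had an unadjusted p under 0.05 (19.5% of all tested genes). DESeq2 called 3 higher (4.06% of all genes) and 1 lower (695 of the 16171 genes it tested). Of the 12 genes tested by edgeR, 3 had no DESeq2 adjusted p. Leaving out any single library except germ-free 2 ended the Thy1 call. The summed fibroblast level was 214.3 to 252.5 CPM (SPF) against 241 to 899.6 CPM (germ-free), where 899.6 CPM was germ-free 3 and the others did not exceed 284.7. Sparc and Fbln1, the leading genes of that sum, were well counted in SPF libraries too, and 7 of the 14 genes averaged at least 2 CPM there. The collagen gene Col1a1, the defining marker, had 2, 7, 56 and 7 counts in the SPF libraries and 76, 146, 1283 and 87 in the germ-free libraries. Col1a2 had 2, 15, 59 and 16 counts and 44, 73, 1201 and 80 counts. Germ-free 3 was the highest germ-free library for both collagen genes, as it was for 9 of the 10 endothelial genes, and SPF 4 was the highest SPF library. The part of such RNA in the endothelial differences was not tested. Without germ-free 3 the ratio of germ-free to SPF summed levels went from 1.81 to 1.12 for the fibroblast list, from 2.53 to 1.46 for the receptors, from 2.3 to 1.44 for the blood endothelial list and from 1.74 to 1.65 for the lymphatic list. The log2 fold change was then above 0 for 9 of 12 fibroblast, 6 of 8 receptor, 17 of 20 blood endothelial and 8 of 9 lymphatic genes. The summed levels were led by few genes. Acvrl1 gave 16.2 of the 28.0 CPM of the receptors in SPF libraries, at a log2 fold change of −0.14. Sox7 and Rapgef4 led the blood endothelial sum, and Sema3d and Nr2f2 the lymphatic sum. In germ-free 4 Itga9 gave 36.8 of 132.7 lymphatic CPM. The summed ratios therefore do not rank the lists by their dependence on germ-free 3.

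Mural cells wrap small vessels, and the summed level of their markers, led by Ndufa4l2, Notch3 and Cspg4, overlapped between the groups. Of 12 mural markers 10 were in the table and 9 were tested, and 7 of these had a log2 fold change above 0 with a median of 0.77. By edgeR 0 were called, with 4 at an unadjusted p under 0.05 (19.5% of all tested genes). DESeq2 called 1, Ndufa4l2, lower, beside 695 lower among the 16171 genes it tested. The median was 1.11 without SPF 5. The summed mural level was 319.1 to 386.3 CPM (SPF) against 275.3 to 359.3 CPM (germ-free), and 5 genes averaged at least 2 CPM in SPF libraries. Ndufa4l2, Notch3 and Cspg4 gave 136.1, 105.5 and 85.1 of the 347.2 CPM that the sum averaged in SPF libraries. The sum therefore says little about the other mural genes. Rgs5, a pericyte marker, had 5, 12, 23 and 1 counts in the SPF libraries and 23, 27, 227 and 21 in the germ-free libraries (2.64 ± 0.99, edgeR adjusted p = 0.183). Pdgfrb, the defining marker, had 1, 2, 4 and 13 counts and 4, 11, 125 and 5 counts and did not pass the count filter. Abcc9 (1.42 ± 0.62, edgeR adjusted p = 0.227) and Ndufa4l2 (−0.80 ± 0.20, edgeR adjusted p = 0.0597, and 0.00618 without germ-free 1) were not called. Without any other single library the edgeR adjusted p of Ndufa4l2 lay between 0.0742 and 0.15, and with the replicate block it was 0.00609.

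Blood cells can carry Pecam1, Vwf and Mmrn1 too, and most of their markers were low. The platelet genes Pf4 and Ppbp did not exceed 12 and 10 counts in any library, and their germ-free means of 0.216 and 0.112 CPM were below the SPF means of 0.399 and 0.469 CPM. Itga2b, which was well counted in all libraries, was the single tested gene of the 5 platelet markers in the table, at 17.3 ± 3.64 CPM (SPF) against 19.7 ± 5.36 CPM (germ-free) (edgeR adjusted p = 0.672). The summed platelet level was 14.6 to 23.1 CPM (SPF) against 15.2 to 26.2 CPM (germ-free). Hba-a2 and Hbb-bs, hemoglobin genes with near-identical copies and so uncertain, were at 2.12 and 1.46 CPM (SPF) against 1.183 and 0.731 CPM (germ-free) (edgeR adjusted p = 0.519 and 0.549). Hba-a1 averaged 0.285 and 0.398 CPM, and the summed red cell level was 0.801 to 7.84 CPM (SPF) against 1.40 to 3.81 CPM (germ-free). Among leukocyte markers 11 of 15 were in the table and 4 were tested. By edgeR 0 were called, with 1 at an unadjusted p under 0.05 (19.5% of all tested genes), while DESeq2 called 1, Cd68, higher (4.06% of all genes). The summed leukocyte level was 7.23 to 15.2 CPM (SPF) against 9.84 to 40.9 CPM (germ-free), and the 40.9 CPM belonged to germ-free 2. Ptprc, the pan-leukocyte marker, had 199 counts in germ-free 2, 17 in germ-free 3 and 2 and 3 in germ-free 1 and 4. Lyz2, a lysozyme gene of myeloid cells, had 0, 14, 41 and 8 counts in germ-free 1 to 4, and the part of leukocyte RNA in the Pecam1 values was not tested. Cd68, a lysosomal protein of macrophages, was at 2.20 ± 0.40 CPM (SPF) against 5.82 ± 2.83 CPM (germ-free) (edgeR adjusted p = 0.0761, and 0.0141 without germ-free 1). Without any other single library the edgeR adjusted p of Cd68 lay between 0.144 and 0.179, and with the replicate block it was 0.253. Lyz2, Cd3e and H2-Ab1 averaged 0.208, 0.151 and 2.78 CPM (SPF) against 1.07, 0.134 and 1.19 CPM (germ-free).

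Muscle, nerve and pigment cell markers gave no call. EdgeR called 0 of 4 tested muscle genes and 0 of 3 tested Schwann cell and melanocyte genes, with 0 at an unadjusted p under 0.05 in either list and 0 called by DESeq2. The summed muscle level was 22.9 to 38.8 CPM (SPF) against 25.8 to 49.8 CPM (germ-free), and the nerve and pigment level 5.29 to 9.24 and 2.80 to 13.1 CPM. Acta1 and Ckm averaged 0.314 and 0.320 CPM (SPF) against 0.723 and 0.515 CPM (germ-free). For Ttn, Tnni2 and Mylpf the edgeR adjusted p was 0.327, 0.701 and 0.755, and for Pmel and Dct it was 0.747 and 0.968. The keratinocyte markers, which define the labelled tissue, were mostly abundant, though Cldn1 had 33 to 430 counts per library. Their sum was 53850 to 64240 CPM (SPF) against 48910 to 59100 CPM (germ-free). Of the 14 genes 12 had a log2 fold change below 0. The median was −0.20, and −0.24 to −0.15 with 1 library left out, beside 0.0209 for all tested genes. Of 14 keratinocyte genes edgeR called 1, Sfn, lower (1090 ± 182 to 698 ± 21.1 CPM, −0.64 ± 0.11, adjusted p = 0.00667), against 2.33% of all tested genes. By the same test Krt5 (adjusted p = 0.736) and Krt14 (adjusted p = 0.170) did not pass.

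**Figure D4:**
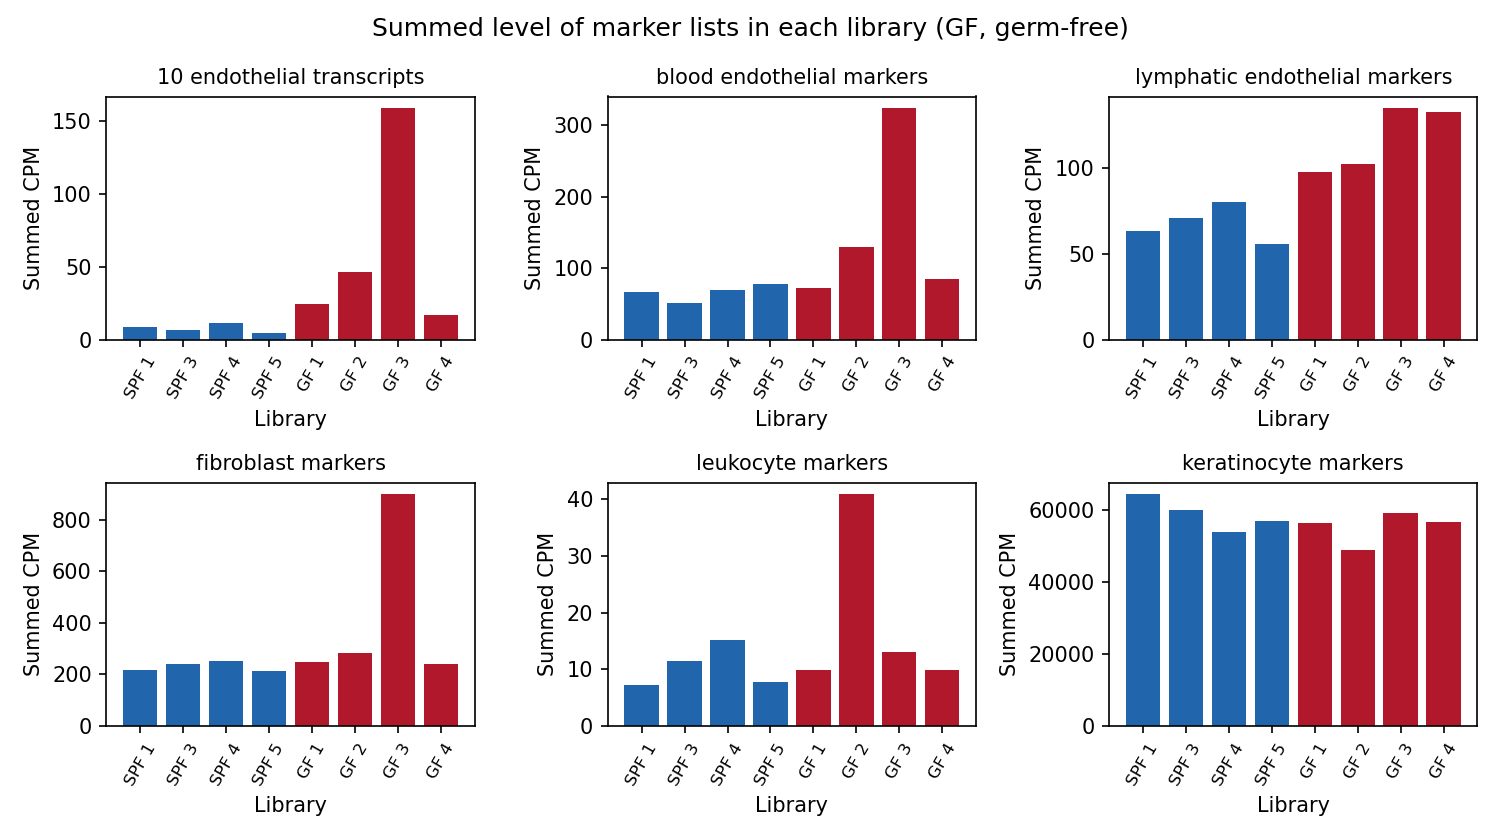
Summed CPM of 6 lists in each library, SPF in blue and germ-free (GF) in red, each panel on its own axis from 0. Germ-free 3 stands out for the 10 endothelial transcripts (158.7 CPM), blood endothelial markers (324 CPM) and fibroblast markers (899.6 CPM), germ-free 2 for leukocyte markers (40.9 CPM), and keratinocyte markers varied little.

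The genes whose within-group pattern was most like that of the 10 endothelial genes were searched among 12997 tested genes whose group mean reached 2 CPM in SPF or germ-free libraries. The measure was Pearson's r, over the 8 libraries, with the mean deviation of the 10 genes from their group means on the log2(CPM + 1) scale. Like the r between the 10 genes, it rests largely on germ-free 3. The closest was Dpt, a dermal matrix gene of the fibroblast list (r = 0.976), with 0, 3, 9 and 1 counts in the SPF libraries and 11, 37, 276 and 8 in the germ-free libraries. Others among the 8 closest were Cd93 (0.969), Tmod2, an actin-capping protein (0.962), Plxnd1, a semaphorin receptor of endothelium (0.962), Eln, the elastin gene (0.959), Emilin2, a matrix glycoprotein (0.957), and Cops7a, a signalosome subunit (0.955). Of these 8 genes 3 stood in the lists above, and edgeR called 0 between the groups, with adjusted p from 0.0941 for Tmod2 to 0.843 for Cops7a. Cops7a was at 97.4 ± 1.03 CPM (SPF) against 94.9 ± 6.03 CPM (germ-free), far less spread relative to its mean than the other genes named.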

How the data were processed

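RNA was sequenced from sorted buccal epithelial cells of 4 germ-free and 4 SPF mice, after rRNA depletion with a stranded low-input kit, per the labels' protocols. Per the submitters' processing notes, which give no role or order, the tools were HTSeq 0.6.0, TopHat2 2.1.1, DESeq2 1.22.2, cutadapt 1.18 and bcl2fastq 2.18.0.12, with the GRCm38 build. The deposited table holds raw counts per gene and library, per the file headers. It also holds the authors' signal values, counts divided by a DESeq2 size factor per library, which were not tested here. The authors' log2 fold changes of SPF over germ-free come with a standard error, per the file headers. The authors' Wald statistic, a score, and their p-values, deposited beside them, were not used for any call, and 92 genes have no p there.

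Raw counts were tested with edgeR 4.0.16 in R 4.3.3 (robust quasi-likelihood fit, TMM scaling, prior count 0.125), on genes that passed a filter with a minimum count of 10 and a minimum total of 15. Benjamini-Hochberg adjustment ran over all 15098 genes tested, with a threshold of 0.05. DESeq2 1.42.0, its size factors, no count filter, the replicate number as a block and each library left out were the alternatives. DESeq2 shares are over the 16171 genes to which it gave an adjusted p, and some listed genes had none. The likeness measure used log2(CPM + 1). Tables were made with pandas 2.3.3 and scipy 1.17.1. Library totals of 10260264 to 15524731 counts put a floor of 3 counts at 0.192 to 0.305 CPM. The fit and the likeness measure were tested on simulated data. No per-sample column was left unmapped.

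The 10 genes and the 13 comparison lists were chosen with earlier results of these data known. Named in each list are its called genes or, with none called, the 3 with the smallest p, the first 2 genes of lists of other cell types, and the 8 genes most alike. Any other gene named was picked with its values in view. Foxc2, Madcam1, Kcnj8, Higd1b, Trac, Trdc, Cd207, Adgre1, Gp1bb, Gp9, Gp6 and Mlana were not analysed here. A few genes that the naming rule selects are not reported here.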

Additional observations from a re-analysis of the deposited data

Results flagged for a closer look

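In 25 of the 130 groups of 4 libraries examined, 1 library stood apart from the other 3 by Dixon's test. The test's rate of about 1 in 20 groups, or 6.5 here, holds for normally distributed values, and the groups share their libraries. CPM near 0 are not so distributed: where the other 3 libraries are at 0, any count is flagged, as for Ppbp and Emcn. The 25 flags can therefore not be read as an excess over chance. In 11 of the 25 the library was germ-free 3, at its group's highest value. Among the 10 endothelial genes these were Mmrn1 (18.2 CPM, the other germ-free libraries at 2.32 to 3.90), Pecam1 (29.8 against 3.81 to 6.27), Cdh5 (29.3 against 0.883 to 4.88) and Slc43a3 (10.6 against 1.10 to 2.178 CPM). The others were the fibroblast sum (899.6 CPM), Eng (11.7), Rgs5 (14.5), Pdgfrb (8.0), Col1a1 (82.1), Col1a2 (76.8) and Ppbp (0.448 CPM). For Emcn the SPF 5 value of 0.0728 CPM, a single count, stood against 0 in the other SPF libraries.

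Germ-free 2 stood apart at the high end for the leukocyte sum (40.9 CPM), Ptprc (13.1) and Pf4 (0.726 CPM), and at the low end for Tnni2 (14.6 CPM). SPF 4 was the high library for Ptprb (1.222 CPM), Col1a1 (4.28), Ttn (4.58) and Lyz2 (0.764 CPM). SPF 1 was high for Eng (1.83 CPM) and Abcc9 (0.814 CPM), and SPF 5 for Dct (2.69 CPM). Germ-free 1 was high for Pgf (3.16 CPM) and low for Dct (0.221 CPM).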

How the results depend on the processing

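Among the 10 endothelial genes edgeR called 6 higher, 3 with the replicate block and 2 to 7 with 1 library left out, the 2 without SPF 5. The replicate block also gave 172 genes higher and 161 lower over the whole table, 0 blood endothelial genes higher, 1 mural gene higher and 1 lower, and a leukocyte median log2 fold change of −0.11; the median of the 10 genes was 3.05. Numbers 1, 3 and 4 occur in both groups, and the block fit drew its group difference from these alone. SPF 5 and germ-free 2 have numbers without a partner and add nothing to that difference, so the block fit used fewer libraries. Same-numbered libraries deviated with r of 0.172, −0.053 and −0.052, not every library correlated best with its own number, and the libraries share only a number. DESeq2 called 657 genes higher and 695 lower, with 6 receptors, 9 blood endothelial, 4 lymphatic, 3 fibroblast and 1 leukocyte gene higher and 1 mural gene lower. Without a count filter 2 blood endothelial genes were called. Leaving out 1 library gave 128 to 286 genes higher and 152 to 402 lower. The higher count left 1.5 times of 279 without SPF 3 (128), SPF 4 (146), SPF 5 (139), germ-free 3 (176) and germ-free 4 (134), and the lower count of 352 without the same libraries (156, 155, 179, 203 and 152). It gave 0 to 2 receptors, 0 to 2 blood endothelial and 1 to 2 lymphatic genes higher, 0 to 1 mural and 0 to 1 fibroblast genes lower, 0 to 1 leukocyte genes higher and 1 to 2 keratinocyte genes lower. The summed ratio of 7.92 ran from 3.77 to 9.84, and the median of the 10 genes was 2.99 without germ-free 3. Directions turned for the ligand median (−0.057 to 0.23), the leukocyte median (−0.17 to 0.41), the Schwann cell and melanocyte median (−0.50 to 0.031), Tnni2 (−0.33 to 0.0062) and Dct (−0.20 to 1.27). The cause of these changes was not tested. Depth limits Emcn, Mmrn1 and Slc43a3 most, with 1, 2 and 4 counts over the SPF libraries.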
